A study of Mus musculus with 4 samples.

Results

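The imprinted cluster between Dlk1 and Dio3 on mouse chromosome 12 was examined in Beta-TC-6, a mouse pancreatic beta cell line, with and without depletion of NF45. Its members were selected by position in the GRCm38 gene order: every gene from Dlk1 to Dio3 named Mir with a digit, together with Dlk1, Meg3, Rtl1, Rian, Mirg and Dio3. The RefSeq gene table held 67 such genes, 61 of them microRNA genes. Of these, 47 had a probe set that carried their symbol alone, out of 22180 genes measured in this way on the array, and 43 of the 47 were microRNA genes. Another 16 members occurred only on probe sets that list several symbols and 4 on no named probe set. The cluster was picked on measured values, because Mir540, Mir300 and Mir337 had been among the microRNA genes with the smallest p in the siNF45 against siNTC comparison. That comparison is therefore given here as a description and not as a test.

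Both groups were lipid-transfected Beta-TC-6 cultures. The siNTC group (2 arrays) received a negative control siRNA and the siNF45 group (2 arrays) a mixture of RNAi duplexes against NF45, the double-stranded RNA-binding partner encoded by Ilf2. The labels give no time after transfection and do not say whether the arrays of a group were separate transfections, so the spread between them may be technical. The cells are 1 established line.

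The Dlk1-Dio3 region is an imprinted domain in which the parental chromosomes express different genes. The protein-coding genes Dlk1, Rtl1 and Dio3 are expressed from the paternal chromosome. The long noncoding RNAs Meg3, Rian and Mirg are expressed from the maternal chromosome, together with one of the largest groups of microRNAs in the mammalian genome and many small nucleolar RNAs, most of them processed from introns or along one long transcript. In human islets the locus is known as an active maternal microRNA cluster of beta cells. A microRNA is cut from a hairpin in its primary transcript, first by Drosha in the nucleus and then by Dicer in the cytoplasm. The short product pairs with messenger RNAs mainly through its seed, bases 2 to 8.

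The sequences below belong to the 6 tested microRNA genes with the lowest siNF45 minus siNTC differences. RefSeq held hairpins for 58 of the 61 microRNA genes, including 41 of the 43 measured, in the build GRCm38.p6. The mature sequences of these 6 genes are printed 5′ to 3′ with the seed in capitals.
mmu-miR-540-5p: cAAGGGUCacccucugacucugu
mmu-miR-540-3p: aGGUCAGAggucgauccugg
mmu-miR-654-5p: uGGUAAGCugcagaacaugugu
mmu-miR-654-3p: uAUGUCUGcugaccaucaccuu
mmu-miR-300-5p: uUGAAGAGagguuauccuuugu
mmu-miR-300-3p: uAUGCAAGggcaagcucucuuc
mmu-miR-337-5p: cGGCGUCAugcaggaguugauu
mmu-miR-337-3p: uCAGCUCCuauaugaugccuuu
mmu-miR-377-5p: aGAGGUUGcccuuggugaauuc
mmu-miR-377-3p: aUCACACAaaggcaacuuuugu
mmu-miR-323-5p: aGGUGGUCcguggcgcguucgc
mmu-miR-323-3p: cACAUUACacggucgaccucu
No seed was common to any pair of these 12 sequences, and none recurred in another microRNA gene of the cluster. Outside the cluster, the seed of mmu-miR-540-3p was also that of a Mir6915 product and the seed of mmu-miR-377-5p that of a Mir672 product. Across the cluster, 114 mature sequences carried 104 different seeds, and these 6 genes were not a seed family.

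The array was hybridised with DNA made from total RNA, and a probe set named for a microRNA gene can read the hairpin, the primary transcript around it or the mature product. These were not separated here. For this reason the hairpins of Mir540 and Mir300, which were among the genes the cluster was picked on, are also shown, with both mature arms in capitals. Mir540 lies at chr12:109586080-109586146 on the plus strand and Mir300 at chr12:109724313-109724391 on the plus strand.
Mir540: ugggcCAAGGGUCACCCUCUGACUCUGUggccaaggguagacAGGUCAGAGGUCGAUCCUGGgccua
Mir300: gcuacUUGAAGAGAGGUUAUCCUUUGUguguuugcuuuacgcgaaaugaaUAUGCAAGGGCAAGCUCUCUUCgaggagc

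The knockdown was seen in the target. On the log2 scale Ilf2 went from 5.79 and 5.98 in siNTC to 3.67 and 3.77 in siNF45, a difference of -2.17 (SE 0.13, limma adjusted p = 0.020) or 4.48-fold. With 2 arrays a group, no two-sided exact permutation test can give less than the 0.333 found for it. Beta cell markers were present on every array, with Iapp between 10.09 and 10.17, Ins2 between 7.60 and 7.97 and Pdx1 between 6.44 and 6.55. The 5 exocrine and duct markers all read between 0.82 and 1.48, under the level of 1.65 (here 1.645, the median mean over arrays) that a gene had to reach to be tested. The log2 of the summed beta cell markers (9 of 10 measured) was 11.18 and 11.05 in siNTC and 11.14 and 11.13 in siNF45. That of other islet cells (5 of 6 measured) was 9.67 and 9.33 in siNTC and 8.97 and 8.87 in siNF45. Somatostatin (Sst), the brightest of them, differed by -0.89 (SE 0.16, limma adjusted p = 0.103). Irx2 differed by -0.39, Gcg by -0.02 and Ppy by 0.52, so the other islet markers had no common direction. The part of these markers in the results below was not tested.

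**Figure D1:**
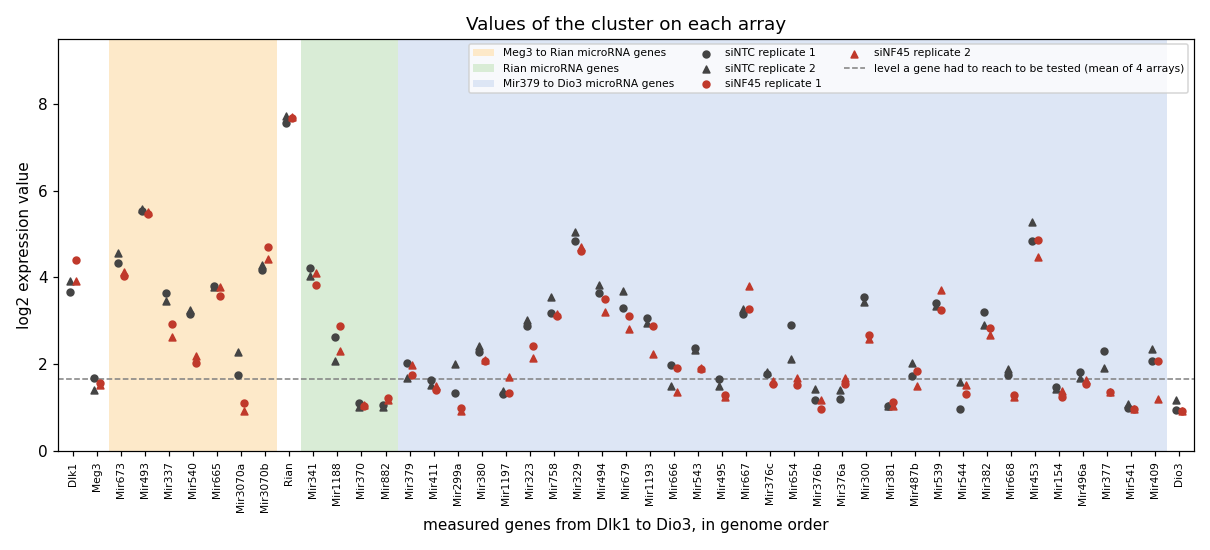
Log2 expression value of each of the 47 measured genes on each array (siNTC grey, siNF45 red, circles and triangles for replicates 1 and 2), in genome order from Dlk1 to Dio3. The groups overlap for Rian at 7.55 to 7.71, and in both long runs of microRNA genes most red points lie below the grey ones.

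The long genes of the cluster showed no common direction. Rian, the maternal noncoding RNA that hosts small nucleolar RNAs, read 7.55 and 7.71 in siNTC and 7.68 and 7.70 in siNF45. These groups overlapped, with a difference of 0.06 (SE 0.12). Dlk1, a transmembrane protein with EGF-like repeats that is expressed in islet beta cells, read 3.66 and 3.92 in siNTC and 4.40 and 3.92 in siNF45, a difference of 0.37 (SE 0.20). Its siNF45 arrays reached down to the higher siNTC array, so the difference rests on siNF45 replicate 1. Dio3, which encodes a deiodinase that inactivates thyroid hormone, read 0.94 and 1.18 in siNTC and 0.93 and 0.91 in siNF45, so that both depleted arrays were lower, on a gene below the level for testing.

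Meg3, the noncoding RNA at the maternal start of the domain, read 1.69 and 1.41 in siNTC and 1.56 and 1.51 in siNF45 on the probe set that carried its symbol alone, below the level for testing. Another 2 probe sets list Meg3 together with microRNA genes and read from 4.78 to 6.65, so the first value does not stand for the whole gene. Their differences were -0.13 and -0.05, and the groups overlapped on both. Rtl1, a retrotransposon-derived gene, occurred only on 6 probe sets that also list microRNA genes. These differed by -0.35 to 0.19, with siNF45 below siNTC on 2 of the 6. Mirg, the noncoding RNA at the distal end, occurred only on 3 such probe sets, which differed by -0.32 to 0.13, with siNF45 below siNTC on 2. Those of Mirg were dim, between 1.36 and 2.51. Over all genes measured on 1-symbol probe sets, 22.7% had both siNF45 arrays lower. Counts out of 6 and 3 probe sets are too small to be told from that share. Values of probe sets with several symbols were assigned to no gene.

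Most microRNA genes of the cluster read lower after NF45 depletion. On 26 of the 43 measured, both siNF45 arrays lay below both siNTC arrays, on 4 both lay above, and 13 overlapped. Counting Dio3, this made 27 of the 47 members lower, where 22.7% of all 22180 measured genes were lower by the same count. The 4 members above stand against 19.2% of all measured genes. None of these counts is a test, since the cluster was picked on this comparison, and after centring each array on the median of the tested genes 15 of the 47 were lower and 8 higher, beside 10.7% and 38.2% of all measured genes. In a bulk culture, fewer cells expressing a gene and less RNA per cell cannot be told apart.

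Of the 47 members, 31 reached the level for testing, 29 of them microRNA genes. None passed the limma adjusted p of 0.05, against 0.0852% of the 11742 tested genes. At an unadjusted limma p under 0.05, 10 members were lower, all of them microRNA genes, beside 13.2% of all tested genes. On the higher side there were 0, beside 4.02% of all tested genes. After centring, 6 were lower and 2 higher, beside 7.40% and 10.7% of all tested genes. Of the 31, 6 were tested only because of their siNTC level, their siNF45 mean being under 1.645, among them Mir377 and Mir654 of the 10 lower, and a gene tested in this way had to read lower in siNF45. The median difference of the 31 was -0.27, and of the 29 microRNA genes -0.30, beside -0.07 for all tested genes. After centring, the median of the 31 was -0.14 and that of all tested genes 0.07. Array by array, the median level of the 29 was 3.15 and 3.25 in siNTC and 2.87 and 2.57 in siNF45. Both depleted arrays were thus lower and replicate 2 the lower of them. This order was not particular to the cluster. The median of all tested genes was 3.82 and 3.76 in siNTC and 3.72 and 3.60 in siNF45. For tested microRNA genes elsewhere it was 2.515 and 2.35 in siNTC and 2.345 and 2.29 in siNF45. The 16 members below the level for testing had a median difference of -0.10, beside 0.04 for all genes below that level, and on 9 of them the siNF45 arrays were both lower, beside 11.6% of those genes.

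**Figure D2:**
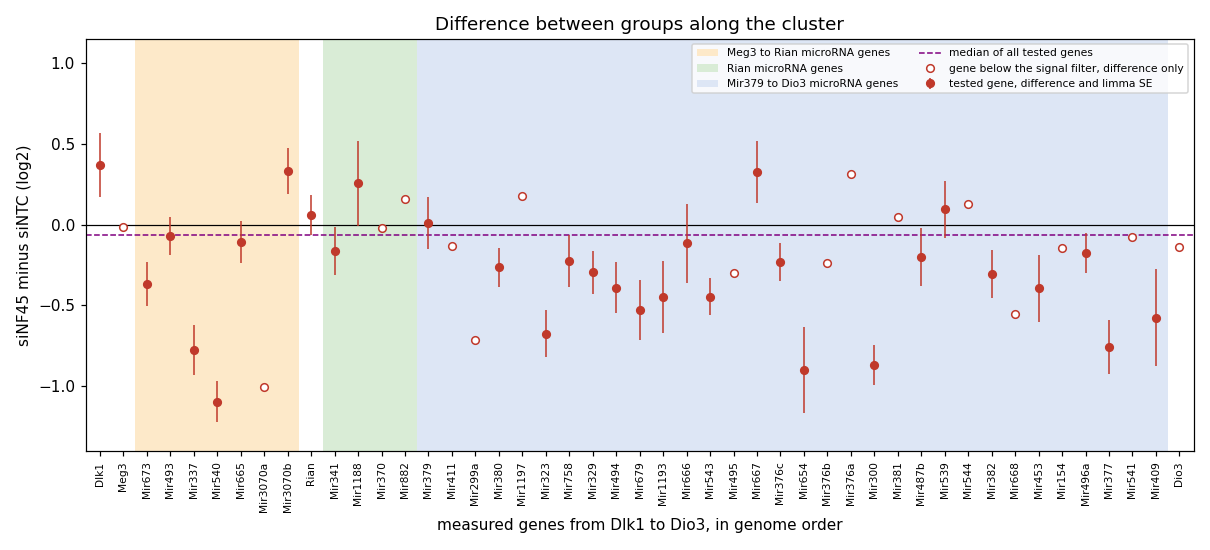
Difference siNF45 minus siNTC (log2) for each measured gene in genome order, with the limma SE for the 31 tested genes (filled) and without it for the 16 below the level for testing (open). The dashed line is the median of all tested genes at -0.07, and 24 of the 31 tested genes lie below 0.

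The first run of microRNA genes lies between Meg3 and Rian, around Rtl1. It holds 17 microRNA genes, of which 7 were measured and 6 tested. Mir540 had the lowest difference of the whole cluster. It read 3.15 and 3.25 in siNTC and 2.03 and 2.18 in siNF45, a difference of -1.10 (SE 0.13) or 2.14-fold lower, with a gap between the groups wider than the spread within either. Mir337, upstream of Mir540, has a hairpin that holds Mir3544 on the opposite strand. It read 3.65 and 3.46 in siNTC and 2.93 and 2.63 in siNF45, a difference of -0.78 (SE 0.16).

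The tested neighbours of Mir540 and Mir337 in the same run differed less. Mir673 read 4.34 and 4.57 in siNTC and 4.04 and 4.13 in siNF45 (difference -0.37, SE 0.14), with the groups apart. Mir493 read 5.52 and 5.58 in siNTC and 5.46 and 5.50 in siNF45, a difference of -0.07 (SE 0.12) that turned to 0.06 after centring. Mir665, next to Mir540 on its other side, read 3.80 and 3.78 in siNTC and 3.58 and 3.78 in siNF45, and the groups overlapped. Large and small differences thus lay side by side within this run, and its median over the 6 tested genes was -0.24.

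Mir3070a and Mir3070b are shown because they are the most alike hairpins of the cluster and differed in opposite directions. Their hairpins, at chr12:109587943-109588031 and chr12:109588592-109588680 on the plus strand, are identical at 84 of 89 aligned positions (94.4%), and their 5′ products have the same name and sequence. Capitals mark the mature arms.
Mir3070a: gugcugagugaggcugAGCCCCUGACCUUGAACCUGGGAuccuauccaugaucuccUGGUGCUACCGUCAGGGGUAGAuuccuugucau
Mir3070b: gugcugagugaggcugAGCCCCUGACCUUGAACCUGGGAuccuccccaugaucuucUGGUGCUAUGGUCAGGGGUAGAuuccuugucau
The probe set of Mir3070a read 1.76 and 2.27 in siNTC and 1.10 and 0.92 in siNF45, a difference of -1.01 on a gene below the level for testing. That of Mir3070b read 4.18 and 4.28 in siNTC and 4.69 and 4.43 in siNF45, a difference of 0.33 (SE 0.14), the highest among the tested microRNA genes. Both pairs of groups were apart. Signal from such near-identical copies may not be separated by the array, so neither value can be assigned to its gene with certainty.

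From the start of Rian to before Mir379 lie 4 microRNA genes. None of them was lower on both siNF45 arrays and 1 was higher, beside 22.7% and 19.2% of all measured genes. A count over 4 genes cannot set this stretch apart from those shares. Mir341 read 4.22 and 4.03 in siNTC and 3.83 and 4.09 in siNF45 (difference -0.17, SE 0.15). Mir1188 read 2.62 and 2.07 in siNTC and 2.89 and 2.31 in siNF45 (difference 0.26, SE 0.26), and its direction turned when siNTC replicate 2 or siNF45 replicate 1 was left out. Both pairs of groups overlapped. Mir370 and Mir882 read between 1.02 and 1.22 on all arrays, below the level for testing, with the siNF45 arrays of Mir882 both above its siNTC arrays by 0.16 on average. With 2 tested genes, the median of 0.05 describes little more than the values above.

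The long distal run from Mir379 to the last microRNA gene before Dio3 holds 40 microRNA genes, of which 32 were measured and 21 tested. Of the 21, 6 were tested only because of their siNTC level, Mir654 and Mir377 among them. Such genes had to read lower in siNF45, which pulls the median of this run down. On 21 of the 32 measured both siNF45 arrays were lower and on 2 both were higher, beside 22.7% and 19.2% of all measured genes. The median of the 21 tested genes was -0.31, beside -0.07 for all tested genes. Mir654 read 2.90 and 2.11 in siNTC and 1.52 and 1.69 in siNF45, a difference of -0.90 (SE 0.27). Its siNTC arrays were far apart, and without siNTC replicate 1 the difference was -0.51. Mir300 read 3.54 and 3.43 in siNTC and 2.66 and 2.57 in siNF45, a difference of -0.87 (SE 0.12) or 1.83-fold lower, with the arrays of each group close together. Mir377 read 2.31 and 1.90 in siNTC and 1.35 on both siNF45 arrays (difference -0.76, SE 0.17).

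Mir323, from the proximal part of the same run, read 2.89 and 3.02 in siNTC and 2.42 and 2.14 in siNF45, a difference of -0.68 (SE 0.15). Mir679 read 3.29 and 3.69 in siNTC and 3.10 and 2.82 in siNF45 (difference -0.53, SE 0.18). Mir543 read 2.38 and 2.32 in siNTC and 1.89 and 1.92 in siNF45 (difference -0.45, SE 0.12), with little spread in either group. The groups were apart for each of these 3. Mir494 read 3.63 and 3.83 in siNTC and 3.49 and 3.19 in siNF45 (difference -0.39, SE 0.16), also with the groups apart.

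The remaining tested genes of this run whose siNF45 arrays were both lower had smaller or less even differences. They were Mir1193, Mir382, Mir329, Mir380, Mir376c, Mir758 and Mir496a, between -0.45 for Mir1193 and -0.18 for Mir496a. Mir1193 read 3.07 and 2.94 in siNTC and 2.87 and 2.24 in siNF45, so most of its difference came from 1 array. Mir329, which shares the seed of its 3′ product with Mir362 elsewhere in the genome, read 4.85 and 5.05 in siNTC and 4.60 and 4.71 in siNF45 (difference -0.30, SE 0.13). Mir453 read 4.85 and 5.27 in siNTC and 4.87 and 4.46 in siNF45 (difference -0.40, SE 0.21), and its groups overlapped. Mir409 read 2.07 and 2.35 in siNTC and 2.08 and 1.19 in siNF45 (difference -0.58, SE 0.30), so its difference came from siNF45 replicate 2 alone. Mir409 and Mir380 each had another probe set, dimmer and below the level for testing, with differences of 0.085 and -0.075.

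Not every gene of the distal run was lower. Mir667, the tested gene with the highest difference there, read 3.15 and 3.27 in siNTC and 3.28 and 3.79 in siNF45 (difference 0.33, SE 0.19), with the groups apart by a narrow margin. Mir539 overlapped between the groups, with a difference of 0.10 (SE 0.18), and Mir379, the first gene of the run, differed by 0.01 (SE 0.16). The Mir376 genes, whose primary transcripts are known targets of adenosine-to-inosine editing, lay near or below the level for testing. Mir376c differed by -0.23 and Mir376b by -0.24, and Mir376a, which read 1.19 and 1.41 in siNTC and 1.55 and 1.68 in siNF45, by 0.32. The hairpins of Mir376b and Mir376c are identical at 80.7% of aligned positions, so these values share the doubt stated for Mir3070a and Mir3070b. Mir381, the hairpin nearest in sequence to Mir300 at 73.8% identity, read between 1.03 and 1.13 on all arrays.

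**Figure D3:**
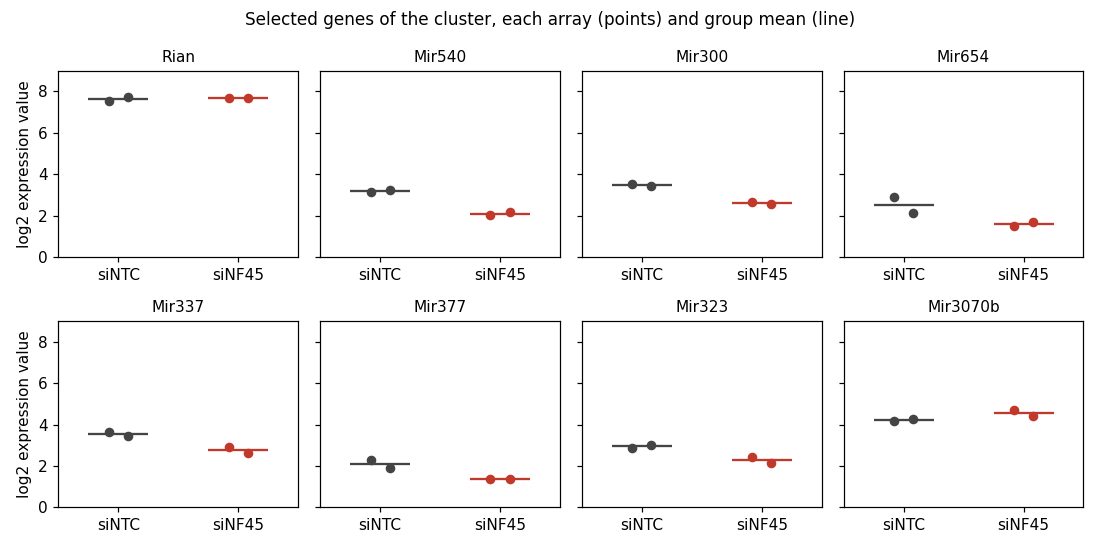
Log2 expression value on each array (points) with the group mean (line) for Rian, the 6 tested microRNA genes with the lowest differences and Mir3070b, the tested microRNA gene with the highest. Rian overlaps between the groups at 7.55 to 7.71, while Mir540 goes from 3.15 and 3.25 to 2.03 and 2.18.

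Position along the cluster described little of how the microRNA genes varied. Over the 29 tested, the difference and the order from Dlk1 to Dio3 had a Pearson r of -0.11 (Spearman rho -0.19). The difference and the GC content of the hairpin had an r of 0.05 (rho 0.09) over the 28 tested genes with a hairpin in RefSeq. The median GC content was 44.3% for the measured microRNA genes with both siNF45 arrays lower and 48.8% for the others, where a hairpin was held. These values are descriptions over genes, which share arrays, host transcripts and probe chemistry and are not independent.

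Small nucleolar RNAs of the same interval lie along the same noncoding transcripts. No gene there carried a symbol starting Snord or Snora, so the genes that RefSeq types as small nucleolar RNA were taken instead, after their values had been seen. Of 19, 6 were measured and 5 tested. AF357425, with the highest difference, read 8.24 and 7.85 in siNTC and 8.31 and 8.30 in siNF45, a difference of 0.26 (SE 0.16). AF357355 read 7.28 and 7.44 in siNTC and 7.37 and 7.24 in siNF45, and its groups overlapped. AF357426 was the gene with the lowest difference, -0.27 (SE 0.12), at 5.48 on both siNTC arrays and 5.16 and 5.27 in siNF45. The 5 differences ran from -0.27 to 0.26 around a median of -0.06, close to the median of all tested genes, and none passed (limma adjusted p between 0.334 and 0.872).

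MicroRNA genes elsewhere in the genome are the genes most like the members. Of 429 measured, both siNF45 arrays were lower on 70 and higher on 81, beside 22.7% and 19.2% of all measured genes. The median difference of the 138 tested was -0.03. At an unadjusted limma p under 0.05, 14 of the 138 were lower and 5 higher, beside 13.2% and 4.02% of all tested genes. In the cluster, 26 of 43 were lower and 4 higher, with a median of -0.30 over 29. Of those 29, 6 were tested only because of their siNTC level and 0 only because of their siNF45 level. Of the 138 elsewhere these numbers were 7 and 8. A gene tested through siNTC alone had to read lower, so the 2 medians do not stand on equal terms. The lowest difference outside the cluster, -1.08, was close to that of Mir540. The difference between the cluster and the other microRNA genes was not tested, since the cluster was picked on it.

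**Figure D4:**
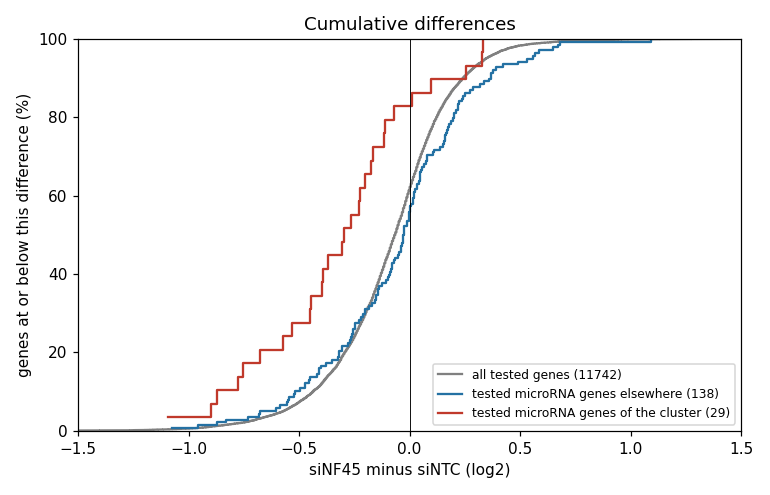
Cumulative share of genes (%) at or below each siNF45 minus siNTC difference (log2) for all 11742 tested genes, the 138 tested microRNA genes elsewhere and the 29 of the cluster. The curve of the cluster lies to the left of the other 2 over most of the range, with medians of -0.30, -0.03 and -0.07. Of the 29, 6 were tested only because of their siNTC level and had to read lower, and 0 only because of their siNF45 level. Of the 138 these numbers were 7 and 8.

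Proteins that make microRNAs were followed as the pathway the members depend on. Of 20 genes of microRNA biogenesis and editing, 17 were tested and none passed over all genes. At an unadjusted limma p under 0.05, 4 were lower and 0 higher, beside 13.2% and 4.02% of all tested genes. The median was -0.15, or -0.02 after centring. Drosha, the nuclease that frees the hairpin, read 5.49 and 5.30 in siNTC and 4.81 and 4.83 in siNF45 (difference -0.58, SE 0.13, limma adjusted p = 0.134). The helicase Ddx17, a Drosha cofactor, differed by -0.41, the editing enzyme Adar by -0.37 and Tarbp2, a partner of Dicer, by -0.34 (limma adjusted p from 0.228 to 0.285). Dicer1 read between 4.92 and 4.95 on all arrays. The part of these genes in the values of the cluster was not tested.

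Regulators of imprinting differed in both directions. Of 20 named, 17 were tested and none passed. At an unadjusted limma p under 0.05, 3 were lower and 2 higher, beside 13.2% and 4.02% of all tested genes. The median was -0.01, which became 0.12 after centring. Eed, a Polycomb subunit, differed by 0.39 (SE 0.12), while its partners Ezh2 and Suz12 differed by -0.33 (SE 0.12) and -0.28 (SE 0.12). The DNA demethylating enzyme Tet2 differed by 0.58 (SE 0.19), Uhrf1, which guides maintenance methylation, by -0.54 (SE 0.18) and the corepressor Trim28, which holds imprints with zinc finger proteins, by -0.33 (SE 0.12). For these 6 genes, limma gave adjusted p-values from 0.206 to 0.328. Dnmt1, the maintenance methyltransferase, read between 6.56 and 6.61 on all arrays. Zfp57, the zinc finger protein that protects the imprint, read between 1.35 and 1.54, below the level for testing.

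The protein-coding genes on either side of the cluster were also described. Of 12, 9 were tested and none passed, and the median was -0.13, or 0.00 after centring. Both siNF45 arrays were lower on 7 of the 12 and higher on 2, beside 27 and 4 of 47 in the cluster. Over all measured genes these shares were 22.7% and 19.2%. Dync1h1, the dynein heavy chain beyond Dio3, differed by -0.40 (SE 0.13, limma adjusted p = 0.219) and Ppp2r5c, the next protein-coding gene after Dio3, by 0.26 (SE 0.12). Wdr25, before Dlk1, differed by -0.29 (SE 0.13) and Wdr20, beyond Dio3, by -0.37 (SE 0.17). The 3 genes below the level for testing, Begain, Slc25a29 and Degs2, all before Dlk1, were lower on both siNF45 arrays by -0.44, -0.41 and -0.35, and with them the median over all 12 was -0.29.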

How the data were processed

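The authors deposited log2 expression values by probe set for 4 Affymetrix Mouse Gene 2.1 ST arrays. Transcriptome Analysis Console is named in the submitters' processing notes. Which version, summarisation, background correction and log base it used is not given in the sources here, and base 2 was inferred from the range. Column medians of 1.64, 1.64, 1.66 and 1.66 show that genes were not centred. Of 41345 probe sets, 23521 had 1 symbol in the platform annotation, 1814 several and 16010 none; 23328 of the first were found by gene number in the RefSeq table of GRCm38.p6, which gave the gene order. The files name no build. The brightest probe set stood for a gene, and genes were tested where its mean over 4 arrays reached the median of all probe sets. The siNF45 and siNTC arrays entered limma 3.58.1 under R 4.3.3 (lmFit, eBayes, 2 residual and 3.69 prior degrees of freedom, Benjamini-Hochberg over 11742 genes), on the values as deposited. SE is the moderated standard error. The scripts were tested on simulated data. Precision is limited by the number of arrays.

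The members and lists were chosen with earlier results of these data known. Members named were the long genes, Mir540, Mir300, Mir337, each tested microRNA gene with groups apart, the 5 brightest, the extremes of each run, and 4 genes of each list; others were named after their values were seen. Alternatives were quantile normalization, centring, no filter or one at the 70th percentile, eBayes with a trend or robust, a replicate block, averaged probe sets and leaving out each array.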

Additional observations from a re-analysis of the deposited data

How the results depend on the processing

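The direction of the 27 named members held in all but 7 of 313 alternative values. The exceptions were Meg3, Mir493, Rian and Mir1188, all with small or uneven differences. Much of this was fixed in advance. Dropping the filter, a trend, a robust fit and the replicate block leave a difference as it was. For members named because their groups were apart, leaving out 1 array cannot turn the direction. The count is therefore no measure of robustness. Across alternatives, the count of genes called went from 10 to 174 with a trend, 172 after centring, 62 after quantile normalization, 87 with the filter at the 70th percentile and 0 with the replicate block, where Ilf2 was at -2.17 with a limma adjusted p of 0.258. Same-numbered arrays were not taken as pairs (correlation of deviations 0.0062). Leaving out each array gave 0 called genes in every case and Ilf2 from -2.26 to -2.07. Members called were Mir540 after quantile normalization, with a trend and after centring, and Mir300 after centring and at the 70th percentile filter. The genes called in these settings were 62 of 11743 after quantile normalization and 174 of 11742 with a trend. They were 172 of 11742 after centring and 87 of 7977 at that filter. Mir540 and Mir300 were among the genes the cluster was picked on, so their calls are no independent result. Members lower at an unadjusted p numbered 5 of 18 at that filter (15.7% of all genes), 6 of 31 after centring (7.40%) and 7 to 10 without 1 array (7.10% to 11.8%). Members with both siNF45 arrays lower numbered 10 of 18 (35.0%) and 15 of 47 (10.7%) in the same settings, and 30 to 32 without 1 array (34.5% to 38.8%), where 1 array stands against 2.

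The median over tested members was -0.20 without a filter, -0.14 after centring and -0.37 to -0.24 without 1 array. That from Meg3 to Rian was -0.37 without a filter, -0.11 at the 70th percentile, -0.15 after quantile normalization, -0.11 after centring and -0.42 to -0.19 without 1 array. From the start of Rian to before Mir379 it was -0.17 at the 70th percentile (1 gene) and -0.14 to 0.23 without 1 array. From Mir379 it was -0.18 after centring and -0.41 to -0.24 without 1 array. Outside the cluster it was 0.02 without a filter, 0.0275 at the 70th percentile, 0.10 after centring and -0.10 to -0.02 without 1 array. The imprint list was at 0.04875 after quantile normalization, 0.12 after centring and -0.06 to 0.045 without 1 array (0.025 without siNTC replicate 1), the biogenesis list at -0.02 after centring and -0.17 to -0.10 without 1 array, and the flanking list at -0.29 without a filter, -0.21 at the 70th percentile, 0.00 after centring and -0.23 to -0.04 without 1 array. The causes were not tested.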

Other observations

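Targets of microRNAs of the homologous human locus have been described in islets, among them TP53INP1 and IAPP. The mouse counterparts were looked at after their values were known. Trp53inp1, a p53-induced nuclear protein, read 4.02 and 3.92 in siNTC and 5.50 and 5.44 in siNF45. Iapp, islet amyloid polypeptide, read 10.17 and 10.11 in siNTC and 10.09 on both siNF45 arrays. Any relation of these values to the microRNA genes was not tested. Mir495, a microRNA gene of the distal run that was too dim to be tested, read 1.65 and 1.49 in siNTC and 1.29 and 1.25 in siNF45.

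Of the members below the level for testing, Mir668 read 1.76 and 1.88 in siNTC and 1.29 and 1.24 in siNF45, a difference of -0.56. Mir299a read 1.34 and 2.00 in siNTC and 0.98 and 0.93 in siNF45 on its brighter probe set, while its other probe set read 0.91 and 1.02 in siNTC and 1.31 and 1.40 in siNF45, the opposite direction.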
